A study of Mus musculus with 2 samples.

Results

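Lyz2-high cells were the subject: single cells rich in transcripts of Lyz2, which encodes the lysozyme of monocytes and macrophages. They were chosen from 5302 cells in which 500 or more genes were detected and no more than 10% of UMIs were mitochondrial (unique molecular identifiers, each standing for 1 captured transcript). A cell was a member when Lyz2 had at least 3000 CPM (its UMIs per 1000000 UMIs of the cell) and Prtn3 under 1000 CPM, when Fn1 and Tgfbi had at least 2 UMIs together, and when Ngp, Ltf and Retnlg had at most 4 UMIs together. The rule was met by 373 cells, of which 222 were among 2636 cells at day 28 and 151 among 2666 cells at day 0. Prtn3 is a granule protease gene of early myeloid cells, Fn1 and Tgfbi encode matrix proteins that monocytes make, and Ngp, Ltf and Retnlg are genes of maturing neutrophils.

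The cells were sorted from hindlimb muscle of Fsp1-Cre:R26R-EYFP mice as positive for YFP and negative for the surface protein CD11b, and were profiled in droplets with 10x Genomics chemistry. The day 28 library came from mice 28 days after hindlimb ischemia surgery, in which the blood supply of the limb is interrupted, and the day 0 library from mice without surgery. In both groups the Fsp1 promoter, that of the gene now named S100a4, drives Cre. Any cell whose history includes activity of that promoter can carry YFP, blood cells included, and YFP itself is not among the genes measured. CD11b, encoded by Itgam, is carried by most monocytes and macrophages, so the sort asked for cells without the protein that usually marks this lineage. Each group had 1 library, the number of mice behind it is not given, and no difference between day 28 and day 0 has a replicate check. No test between them was made. The 95% intervals given cover counting error only, not differences between cells or mice. For that error they are exact except for ratios of shares, where they are too wide.

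Classical monocytes are released from bone marrow, carry Ly6C and the chemokine receptor CCR2, and follow CCL2 into injured muscle. There they turn into macrophages that clear debris and later support regrowth, and along the way monocyte genes such as Ly6c2 decline while genes of complement, lipid handling and antigen presentation are induced. Trem2 encodes a lipid-sensing receptor of tissue macrophages, Ccl2 the chemokine that draws more monocytes, and S100a4 a calcium-binding protein abundant in monocytes.

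The deposited libraries held 2653 barcodes and 38785525 UMIs at day 28, and 2668 barcodes and 19574562 UMIs at day 0, against 5000 captured cells in the series' design text. The median barcode had 12265 UMIs at day 28 and 4844 at day 0, and the lowest had 4175 and 3001. Among the Lyz2-high cells the gap was smaller, with a median of 10238 UMIs at day 28, between 4252 and 32446, and of 8242 at day 0, between 3101 and 31253. Summed over members, 2426074 UMIs stood behind the day 28 levels and 1385583 behind the day 0 levels. The 2 libraries shared 13 barcode sequences, and no member had the same barcode in both.

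Promoter sequences are shown for S100a4, whose promoter decides which cells can enter the sort, and for Trem2, the gene by which the members were divided. Both are from RefSeq on GRCm38.p6, plus strand, and run for 300 bases, the last 50 of them from the transcription start on. Capitals mark matches to GAGGAAG, a core that the myeloid factor PU.1 can bind, or to TTGCNNAA, a core that C/EBP factors can bind. Both motifs were searched on both strands.
S100a4 at chr3:90603520-90603819: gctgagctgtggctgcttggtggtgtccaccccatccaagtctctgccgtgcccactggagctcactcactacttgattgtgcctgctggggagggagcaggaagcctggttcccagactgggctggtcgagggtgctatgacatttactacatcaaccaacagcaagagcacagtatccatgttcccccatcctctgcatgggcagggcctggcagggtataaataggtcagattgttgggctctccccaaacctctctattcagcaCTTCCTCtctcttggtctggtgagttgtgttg
Trem2 at chr17:48346151-48346450: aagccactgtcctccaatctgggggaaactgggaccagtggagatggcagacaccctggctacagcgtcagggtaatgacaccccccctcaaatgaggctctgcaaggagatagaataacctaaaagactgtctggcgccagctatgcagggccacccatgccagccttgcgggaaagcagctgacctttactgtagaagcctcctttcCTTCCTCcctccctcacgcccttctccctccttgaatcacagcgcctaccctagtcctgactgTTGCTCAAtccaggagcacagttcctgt
In the S100a4 window GAGGAAG occurred once, on the minus strand at position 19 counted from the start of transcription. The Trem2 window held GAGGAAG on the minus strand at -41 and TTGCNNAA at 23, and the matches did not overlap. GAGGAAG occurs in 13.6% and TTGCNNAA in 10.8% of 32851 promoters of this length, so a match describes the window and is no evidence of binding. The Lyz2 window held neither motif, and a core motif of the factor NF-kB was found in none of the 3 windows and in 0.411% of all promoters.

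Members made up 8.42% of the day 28 cells (95% interval 7.39 to 9.55%) and 5.66% of the day 0 cells (4.82 to 6.61%), a ratio of 1.49 (1.20 to 1.84). The ratio differed between depth settings. Among cells with at least 4175 UMIs, the higher of the 2 lowest totals, members were 222 of 2636 cells at day 28 and 147 of 1640 at day 0, a ratio of 0.940 (0.759 to 1.17). With every cell thinned to 3000 UMIs before the rule was applied, 143 and 112 cells qualified, a ratio of 1.29 (1.0 to 1.67).

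The rule's own genes describe the members and are no result. Lyz2 had a median of 10874 CPM at day 28, between 3178 and 52426, and of 20313 CPM at day 0, between 3327 and 58322. The nearest cells outside that met every other criterion had 2954 CPM at day 28 and 2948 at day 0. The threshold on Prtn3 passed through a continuous range. The members nearest to it had 994 CPM at day 28 and 997 at day 0, the nearest cells outside 1009 and 1018, and 198 day 28 cells and 69 day 0 cells missed membership through it alone. The Lyz2 threshold alone kept out 94 and 29 cells, and the criteria on Fn1 and Tgfbi and on Ngp, Ltf and Retnlg kept out none by themselves.

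The label calls these cells monocytes and macrophages, and the marker genes bore out the monocyte part. Levels below are CPM of the UMIs summed over the cells of a library unless single cells are named. Ly6c2, the gene of the Ly6C antigen of classical monocytes, had 1957 CPM at day 28 against 3427 CPM at day 0. Ccr2 had 421 CPM at day 28 and 510 CPM at day 0, and was detected in 213 of 222 and 146 of 151 members. F13a1, the coagulation factor chain of monocytes, stood at 533 and 550 CPM, and Lgals3, which encodes galectin-3, was detected in every member of both libraries at 2591 and 3053 CPM. Csf1r, the receptor for the macrophage growth factor, had 69.2 CPM at day 28 and 113 CPM at day 0. All of the 12 genes listed for classical monocytes had UMIs in both libraries, Vcan with only 17 and 10. Genes of other lineages had UMIs in members too, Cd79a of B cells 33 and 90. Presence of a UMI therefore does not tell kinds of cell apart.

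Genes of settled tissue macrophages were mostly absent. Of 18 listed for resident macrophages, 8 had no UMI in members at day 28 and 10 had none at day 0. The complement genes C1qa and C1qb had 0 UMIs in 222 and in 151 members, which allows a share of up to 1.35% of cells with a UMI at day 28 and 1.99% at day 0, and C1qc had a single UMI in all. That limit is on cells with a UMI at these depths, not on cells expressing the genes. Mertk, Timd4, Folr2 and Stab1 were at 0 in both libraries. Only Sepp1, Adgre1 and Apoe of that list averaged 10 CPM or more, Sepp1 with 119 CPM at day 28 and 141 CPM at day 0, and Adgre1, the F4/80 antigen, with 31.3 and 31.8 CPM. Genes listed for alternative activation were mixed. Arg1, Retnla and Chil4 were at 0 in both libraries, while Chil3, Klf4, Socs3, Stat6, Clec10a and Il4ra averaged 10 CPM or more. Chil3 had 187 CPM at day 28 and 191 CPM at day 0, and Klf4 274 and 403 CPM. The cells are called Lyz2-high cells here, since most of the resident macrophage genes did not bear out the macrophage part of the label.

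Itgam, whose protein the sort excluded, had 30.9 CPM at day 28 and 33.2 CPM at day 0, and 62 and 37 members carried it. Transcripts of the gene were thus present in cells taken as negative for the protein, at 1.48 and 6.2 CPM in erythroid cells of the same libraries. Fibroblast genes were near 0: the 8 listed, collagens and Pdgfra among them, summed to 2.89 CPM at day 28 against 1.44 CPM at day 0, and 4 and 6 of them were at 0.

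S100a4 itself was detected in 221 of 222 members at day 28 and 150 of 151 at day 0. Its level was 1390 CPM at day 28 and 1438 CPM at day 0, a ratio of 0.967 (0.914 to 1.02). The gene lies on chromosome 3, from base 90603771 to base 90606045 of the plus strand in mm10. The interquartile ranges of single cells overlapped. In cells of other kinds the same gene had 251 and 300 CPM (Prtn3-high cells), 31.0 and 72.2 CPM (B-lineage cells) and 8.89 and 2.48 CPM (erythroid cells).

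**Figure D1:**
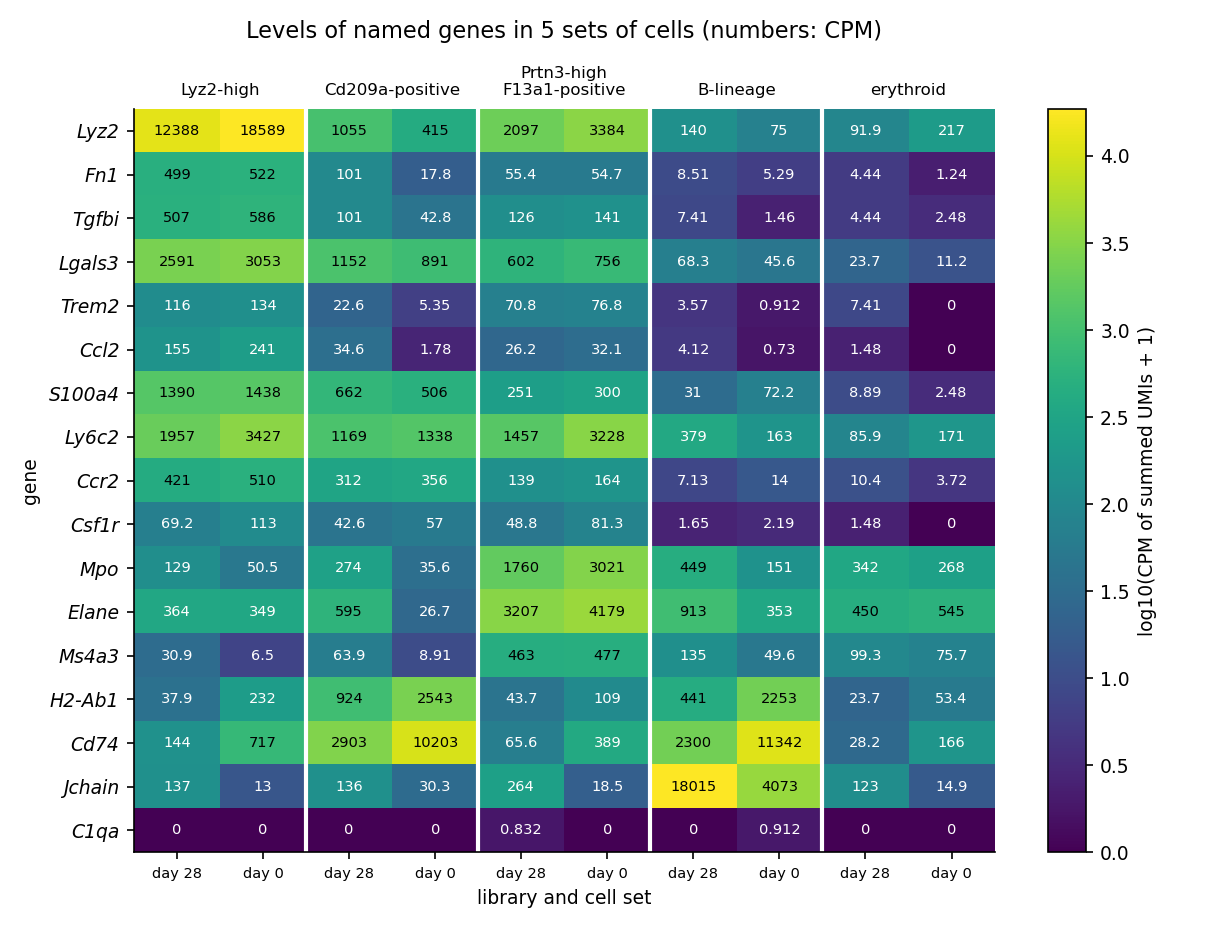
Levels of 17 genes in CPM, printed in each box and coloured on a log10 scale, in 5 sets of cells with the day 28 library left of the day 0 library. Lgals3 stood at 2591 and 3053 CPM in Lyz2-high cells against at most 1152 CPM elsewhere, and C1qa was at or near 0 in all sets.

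The members were set beside 2 kinds of like cell in each library, picked by marker genes without a measure of likeness. Prtn3-high cells with at least 2 F13a1 UMIs, 648 at day 28 and 158 at day 0, carry granule genes of myeloid precursors such as Mpo. Cells with at least 2 UMIs of Cd209a, a lectin gene of dendritic cells, numbered 81 and 78, and also carried Siglech, a gene of plasmacytoid dendritic cells, at 482 and 739 CPM. Since the rule uses genes of these contrasts, the values are a description.

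Against the Prtn3-high cells, 327 of 6662 genes (4.91%) were at least 2-fold higher in the members in both libraries and 168 (2.52%) at least 2-fold lower. Plbd1, a phospholipase gene, had 94.4 against 6.96 CPM at day 28 and 143 against 6.80 CPM at day 0. The chemokine gene Ccl6 had 148 against 15.3 CPM and 240 against 16.2 CPM, and the interferon-induced Ifi27l2a 533 against 51.9 CPM and 419 against 28.5 CPM. S100a4 differed in the same way, with 1390 against 251 CPM and 1438 against 300 CPM, as did Ccr2, with 421 against 139 CPM and 510 against 164 CPM. Lower in the members were the granule genes of precursors. Mpo, which encodes myeloperoxidase, had 129 against 1760 CPM at day 28 and 50.5 against 3021 CPM at day 0, Elane 364 against 3207 CPM and 349 against 4179 CPM, and Ms4a3 30.9 against 463 CPM and 6.5 against 477 CPM. Cdk6, a cell cycle kinase, followed with 35.4 against 222 CPM and 20.2 against 223 CPM. Ly6c2, in contrast, was close in both kinds of cell, with 1957 against 1457 CPM and 3427 against 3228 CPM.

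Against the Cd209a-positive cells, 245 of 6938 genes (3.53%) were at least 2-fold higher in the members in both libraries and 448 (6.46%) at least 2-fold lower. Mgst1, a glutathione transferase gene, had 399 against 51.9 CPM at day 28 and 528 against 8.91 CPM at day 0. Complement C3 had 103 against 12 CPM and 126 against 3.56 CPM, and the cytokine gene Osm 194 against 28.0 CPM and 239 against 30.3 CPM. H2-Ab1, an MHC class II gene of antigen-presenting cells, was lower in members, with 37.9 against 924 CPM and 232 against 2543 CPM, and Siglech nearly absent, with 2.06 against 482 CPM and 1.44 against 739 CPM.

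A minority of members themselves carried Cd209a: 17 at day 28 and 11 at day 0 had at least 2 UMIs of it. They held H2-Ab1 at 211 CPM against 25.2 CPM in the other members at day 28, and at 1942 against 113 CPM at day 0, where a single cell held 84.6% of the UMIs. Siglech had no UMI in these cells of either library.

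Trem2, Ccl2 and S100a4 divided the members as follows. Trem2 was detected in 135 of 222 members at day 28, 60.8% (54.1 to 67.3%), and in 85 of 151 at day 0, 56.3% (48.0 to 64.3%). Ccl2 was detected in 106 members at day 28, 47.7% (41.0 to 54.5%), and in 68 at day 0, 45% (36.9 to 53.3%). In B-lineage cells, which should lack both genes, the shares were 3.54% and 0.562% for Trem2 and 3.24% and 0.450% for Ccl2, with median depths of 8054 and 4831 UMIs. S100a4 was detected in 18.3% and 13.3% of those cells. Erythroid cells had a UMI of Trem2 in 5 of 50 at day 28, 10.0% (3.33 to 21.8%), and in 0 of 85 at day 0.

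The order of the libraries in these shares depended on depth. With every cell thinned to 3000 UMIs, Trem2 was detected in 22.5% of members at day 28 (17.2 to 28.6%) and in 33.1% at day 0 (25.7 to 41.2%), and Ccl2 in 27.0% (21.3 to 33.4%) and 35.1% (27.5 to 43.3%). At 6000 UMIs, which left out 23 and 32 shallower members, Trem2 was detected in 47.2% and 49.6% and Ccl2 in 39.2% and 40.3%. At 3000 UMIs the ratio of day 28 over day 0 was 0.680 (0.450 to 1.03) for Trem2 and 0.770 (0.523 to 1.14) for Ccl2. At 6000 UMIs it was 0.953 (0.681 to 1.34) and 0.972 (0.670 to 1.42). These ratio intervals take the numbers of cells as counts with no upper limit. For shares this large that makes them too wide, and they do not show whether the shares differed. Thinned to 3000 UMIs, B-lineage cells had Trem2 in 0.885% and 0.337% and Ccl2 in the same shares. Prtn3-high cells thinned alike had Trem2 in 21.9% (18.8 to 25.3%) and 23.4% (17.1 to 30.8%), close to the members' share at day 28. They had Ccl2 in 7.25% (5.38 to 9.53%) and 7.59% (3.99 to 12.9%), below the members' shares in both libraries.

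**Figure D2:**
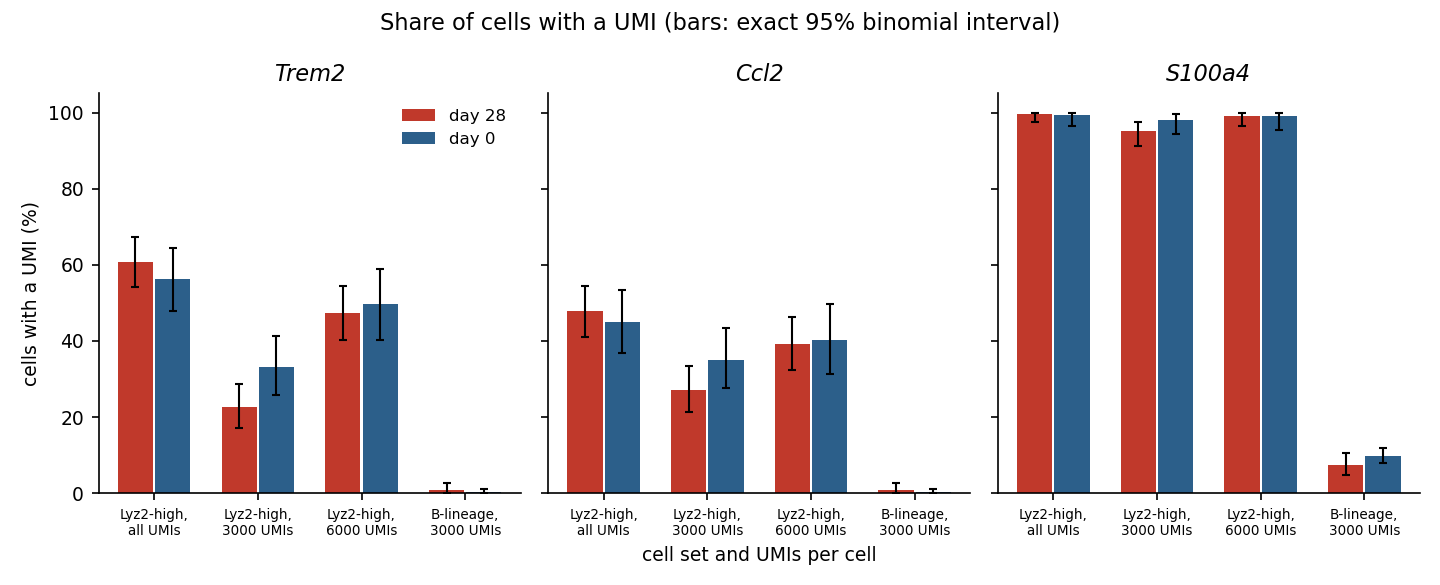
Share of cells with a UMI of Trem2, Ccl2 and S100a4 in percent, for Lyz2-high cells at full depth and thinned and for thinned B-lineage cells, with day 28 left of day 0 and exact 95% binomial intervals. Trem2 was detected in 60.8% and 56.3% of members at full depth and in 22.5% and 33.1% at 3000 UMIs, while S100a4 stayed at or above 95%.

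Ccl2 was detected at similar shares in members with and without Trem2, with intervals that overlapped in both libraries. Both were detected, together with S100a4, in 68 members at day 28 and 39 at day 0, Trem2 without Ccl2 in 66 and 45, Ccl2 without Trem2 in 38 and 29, and neither in 49 and 37. The single member without S100a4 in each library had Trem2 and no Ccl2. Ccl2 was detected in 50.4% of Trem2-positive members (41.6 to 59.1%) and 43.7% of Trem2-negative ones (33.1 to 54.7%) at day 28, and in 45.9% (35 to 57%) and 43.9% (31.7 to 56.7%) at day 0.

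Trem2-positive members resembled the Trem2-negative ones in most genes. Among 6611 genes, 6 (0.0908%) were at least 2-fold higher in Trem2-positive members in both libraries and 13 (0.197%) at least 2-fold lower. At a mean of at least 50 CPM no gene was higher by that much and 4 were lower, all of MHC class II. H2-Ab1 had 20.7 against 71.2 CPM at day 28 and 120 against 417 CPM at day 0, H2-Aa 15.0 against 80.8 CPM and 112 against 341 CPM, and Cd74, the invariant chain, 69.5 against 287 CPM and 441 against 1168 CPM. Without the cell that held most of each gene, the log2 ratio of H2-Ab1 was -1.38 at day 28 but -0.20 at day 0, so that at day 0 the difference rested on 1 Trem2-negative cell. Subsets and levels were also taken from thinned cells. At day 28 the log2 ratio of H2-Ab1 then went from -1.78 to -0.61, under 2-fold. That of H2-Eb1, also among the 4 genes, went from -1.56 to 0.46. H2-Aa and Cd74 stayed lower in thinned cells at day 28, at -3.31 and -1.45. At day 0 the thinned log2 ratios of the 4 genes lay between -2.23 and -1.79. Cd209a itself had 21.3 against 68.8 CPM and 23.2 against 74.3 CPM. Below 2-fold, the stress gene Atf3 had 153 against 286 CPM and 164 against 278 CPM. No gene of the 13 tested in the Trem2 and lipid list was 2-fold apart in both libraries, and the median log2 ratios of that list were -0.12 at day 28 and -0.08 at day 0, beside 0.01 and 0.00 over all genes. Trem2-positive members were the deeper cells, with medians of 11261 against 9248 UMIs at day 28 and 9258 against 6591.5 UMIs at day 0. The part of depth in these differences was not tested beyond the thinned counts.

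Ccl3 and Ccl4 stood higher in Ccl2-positive members of both libraries, by less than 2-fold. Ccl3 had 794 against 540 CPM in Ccl2-negative members at day 28, a ratio of 1.47 (1.33 to 1.63), and 1052 against 614 CPM at day 0, a ratio of 1.71 (1.52 to 1.93). Ccl4 had 417 against 280 CPM and 210 against 154 CPM, with ratios of 1.49 (1.30 to 1.71) and 1.36 (1.05 to 1.76). Both genes encode inflammatory chemokines. None of the 7 chemokine genes tested was 2-fold apart in both libraries, and the list medians were 0.58 at day 28 and 0.23 at day 0. Ccl2-positive members had a median of 10238 UMIs against 10248.5 at day 28, and were the deeper cells at day 0, with 9206.5 against 7510 UMIs. Past 2-fold in both libraries stood 4 of 6607 genes (0.0605%) on the higher side, Apeh, Car1, Dntt and Pram1, and 6 (0.0908%) on the lower side. Each of these 10 genes averaged under 50 CPM, and the 4 higher ones rested on few UMIs. Apeh had 17 against 7 UMIs at day 28 and 13 against 5 at day 0, and Pram1 18 against 6 and 11 against 5. Dntt had 28 against 2 and 12 against 0 UMIs, and Car1, an erythroid gene, 15 against 7 and 58 against 3. Ly6c2 was close in both kinds of member, with 1975 against 1940.5 CPM at day 28 and 3350.4 against 3501 CPM at day 0. Ccr2, the receptor for CCL2, had 376 against 465 CPM and 459 against 558 CPM. S100a4 was detected in nearly all members, so no S100a4-negative set could be compared.

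Between the libraries, most genes of the Lyz2-high cells kept their level. Of 6599 genes with a mean of at least 10 CPM, 53 (0.803%) were at least 2-fold higher at day 28 and 195 (2.95%) at least 2-fold lower. By these shares a short gene list would hold few such genes. A low count in a list below is thus not read as a trait of that list. The median log2 ratio of day 28 over day 0 was -0.12 over all genes tested, and with that median set to 0 the counts were 87 higher and 146 lower. At a mean of at least 50 CPM, 11 genes were higher and 24 lower.

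**Figure D3:**
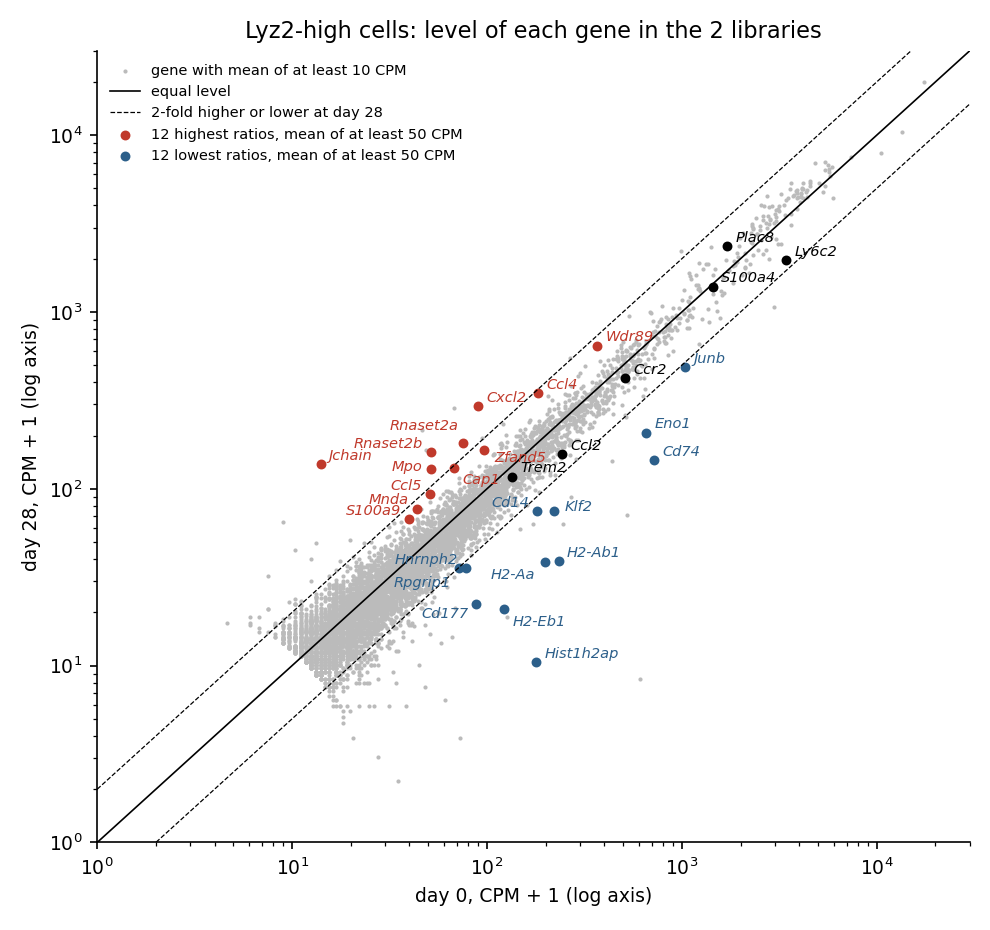
CPM plus 1 of each gene in Lyz2-high cells at day 28 (y axis) and day 0 (x axis), both log axes, with dashed lines at 2-fold. The coloured points are the 12 highest and 12 lowest ratios under the rule for named genes, which leaves out ribosomal, mitochondrial, globin and unnamed genes, and S100a4 lies on the line of equal level with 1390 and 1438 CPM.

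The monocyte surface genes were lower or level at day 28. Ly6c2 had 4749 UMIs in each library, which at their depths gave a ratio of 0.571 (0.548 to 0.595), and single cells had a median of 1813 CPM at day 28 against 3375 CPM at day 0, with interquartile ranges that did not overlap. In Prtn3-high cells Ly6c2 also stood lower, with 1457 CPM against 3228 CPM at day 0. Csf1r had a ratio of 0.611 (0.489 to 0.765), and Cd14, the co-receptor for bacterial lipopolysaccharide, one of 0.409 (0.336 to 0.497), at 73.8 and 180 CPM. Both genes also stood lower at day 28 in Prtn3-high cells, Csf1r at 48.8 and 81.3 CPM and Cd14 at 20.4 and 47.6 CPM. In Cd209a-positive cells Csf1r had 42.6 and 57.0 CPM and Cd14 17.3 and 46.3 CPM. Plac8 ran the other way, with 2363 CPM at day 28 and 1708 CPM at day 0, a ratio of 1.38 (1.32 to 1.45), and was higher at day 28 in B-lineage cells too, at 1309 and 683 CPM. None of the 10 classical monocyte genes tested was 2-fold apart, and their median log2 ratio was -0.07. Of 16 monocyte and macrophage markers tested, only Cd14 was 2-fold lower and none higher, with a median of -0.24.

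**Figure D4:**
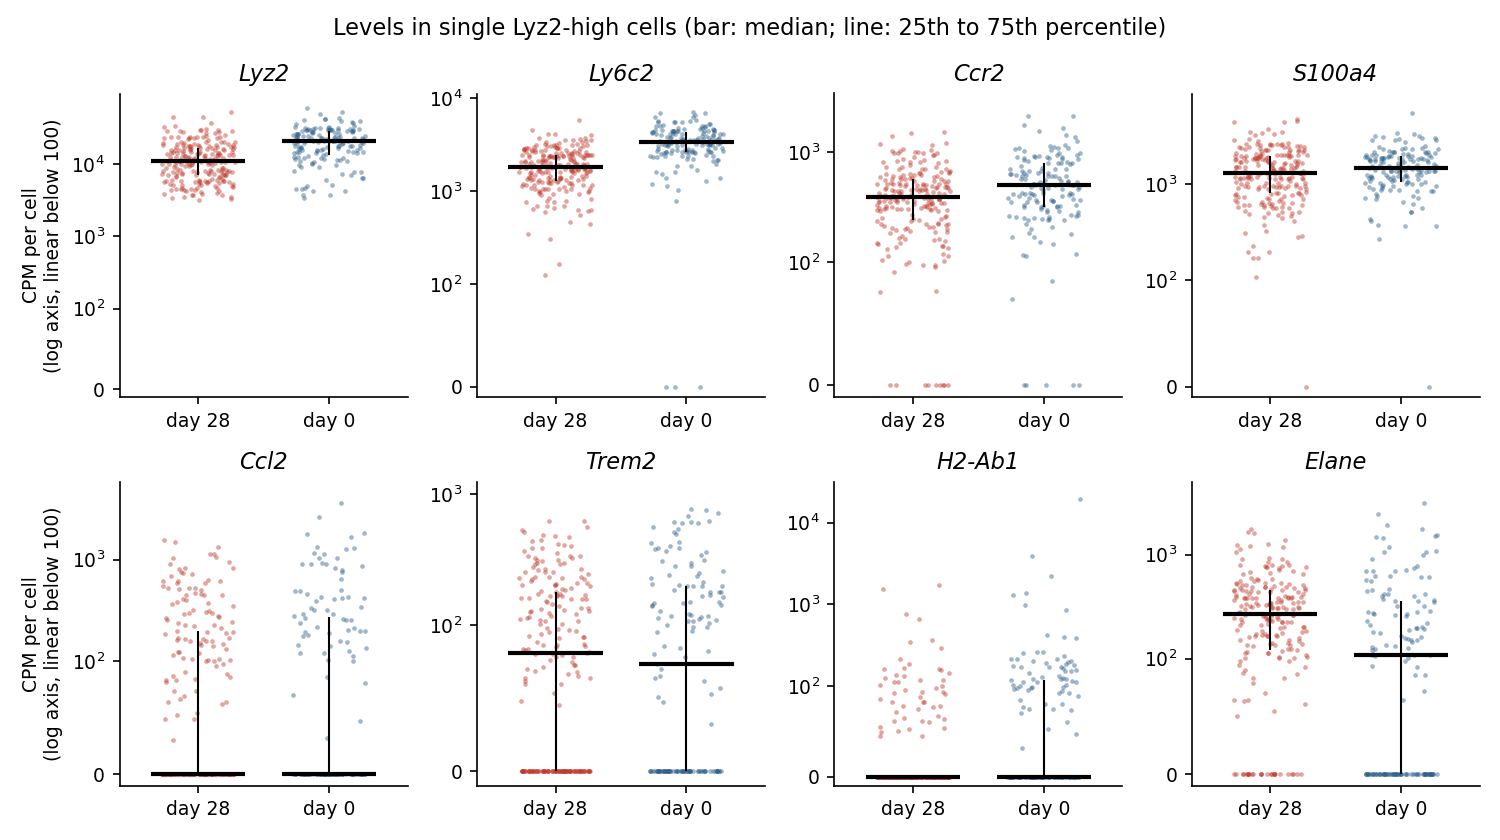
CPM per single Lyz2-high cell for 8 genes, day 28 left of day 0, on a log axis that is linear below 100, with medians as bars and interquartile ranges as lines. The median of Ly6c2 was 1813 CPM at day 28 and 3375 CPM at day 0, and 1 day 0 cell stands far above the others in H2-Ab1.

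Chemokine genes differed in both directions. Cxcl2, which draws neutrophils, had 292 CPM at day 28 and 88.8 CPM at day 0, a ratio of 3.29 (2.71 to 4.01), and was detected in 70 of 222 and 25 of 151 members. Its level in erythroid cells was 7.41 and 0 CPM, and in Prtn3-high cells 90.3 and 33.4 CPM. Ccl4 had 347 and 181 CPM, a ratio of 1.92 (1.66 to 2.22), with a UMI in 138 and 63 members. Ccl4 was higher at day 28 in the other sets too. It had 67.1 and 33.4 CPM in Prtn3-high cells, 2428 and 1700 CPM in Cd209a-positive cells, 108 and 75.5 CPM in B-lineage cells and 19.3 and 12.4 CPM in erythroid cells. Other chemokines ran the other way: Ccl2 had 155 and 241 CPM, a ratio of 0.645 (0.555 to 0.749), Ccl6 148 and 240 CPM, and Ccl3 665 and 829 CPM. Of 8 chemokine genes tested 1 was 2-fold higher and none lower, with a median log2 ratio of 0.19, while Ccl8, Ccl12 and Ccl17 had no UMI in members of either library. Ccl5 was among the 12 highest ratios, but 1 cell held 43.0% of its UMIs at day 28 and 1 cell 52.2% at day 0.

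Among 13 inflammatory cytokines and receptors tested, Il6 and Ptgs2 were 2-fold higher at day 28 and Cd14 2-fold lower. Il6, an acute-phase cytokine, and Ptgs2, the inducible cyclooxygenase, each had 52 UMIs at day 28 and 13 at day 0, or 21.4 and 9.38 CPM, a ratio of 2.28 (1.23 to 4.57). With members thinned to 3000 UMIs the log2 ratio of Il6 was -0.40. Il1b had 54.8 and 39.0 CPM, Tnf 33.4 and 29.6 CPM, and Osm, a cytokine of the interleukin-6 family, 194 and 239 CPM.

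Matrix and growth factor genes were few at a measurable level. Thbs1, which encodes the matrix glycoprotein thrombospondin-1, an inhibitor of vessel growth, had 50.3 CPM at day 28 and 18.8 CPM at day 0, a ratio of 2.68 (1.74 to 4.27). It was detected in 46 and 14 members, and erythroid and Cd209a-positive cells had none. Prtn3-high cells had 2.65 and 0.648 CPM and B-lineage cells 0.823 and 0.182 CPM. Thbs1 was the only matrix gene of 6 tested that was 2-fold apart. Fn1 and Tgfbi, which the rule used, stood at 499 and 522 CPM and at 507 and 586 CPM. Cd44, the hyaluronan receptor, had 178 and 115 CPM, a ratio of 1.54 (1.28 to 1.86). Cd44 was higher at day 28 in the other sets too. It had 113 and 79.7 CPM in Prtn3-high cells and 136 and 123 CPM in Cd209a-positive cells. B-lineage cells had 79.8 and 53.8 CPM of it and erythroid cells 22.2 and 14.9 CPM. Emilin2, a matrix glycoprotein gene, had 95.2 and 184 CPM in members. Emilin2 stood at 91.9 and 78.2 CPM in erythroid cells. Of 5 growth and angiogenic factors tested, Thbs1, which is on this list too, was 2-fold higher and Grn 2-fold lower, with a median of -0.30. Tgfb1 had 324 and 423 CPM and Grn, which encodes progranulin, 254 and 513 CPM, a ratio of 0.495 (0.443 to 0.552). The vessel growth factor Vegfa was at 3.71 and 3.61 CPM, and Igf1 had no UMI in members of either library.

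Lysosomal and phagocytic genes leaned lower at day 28. Of 21 lysosomal protease and lysozyme genes tested, 2 were 2-fold lower, Lyz1 and Grn, and none higher, with a median log2 ratio of -0.38. Ctss, the protease that frees class II molecules from the invariant chain, had 366 CPM at day 28 and 648 CPM at day 0, a ratio of 0.565 (0.515 to 0.621). Grn and Ctss were also lower at day 28 in 2 other sets of cells. Grn had 107 and 221 CPM in Prtn3-high cells and 380 and 852 CPM in Cd209a-positive cells. Ctss had 103 and 178 CPM and 418 and 800.1 CPM in these sets. Psap, the saposin precursor, had 1981 and 2810 CPM. Among complement and phagocytosis receptors, Cd300a was 2-fold lower with 79.6 and 160 CPM, and the Fc receptor gene Fcgr3 had 119 and 209 CPM, for a median of -0.57 over 6 genes. In the Trem2 and lipid list 1 of 14 genes tested was 2-fold higher, Cd63 on 43 and 7 UMIs, and 1 lower, Apoe, with a median of -0.32. Trem2 itself had 116 and 134 CPM, a ratio of 0.871 (0.721 to 1.05), and Gpnmb, a gene of lipid-laden macrophages, was at 2.47 and 1.44 CPM.

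**Figure D5:**
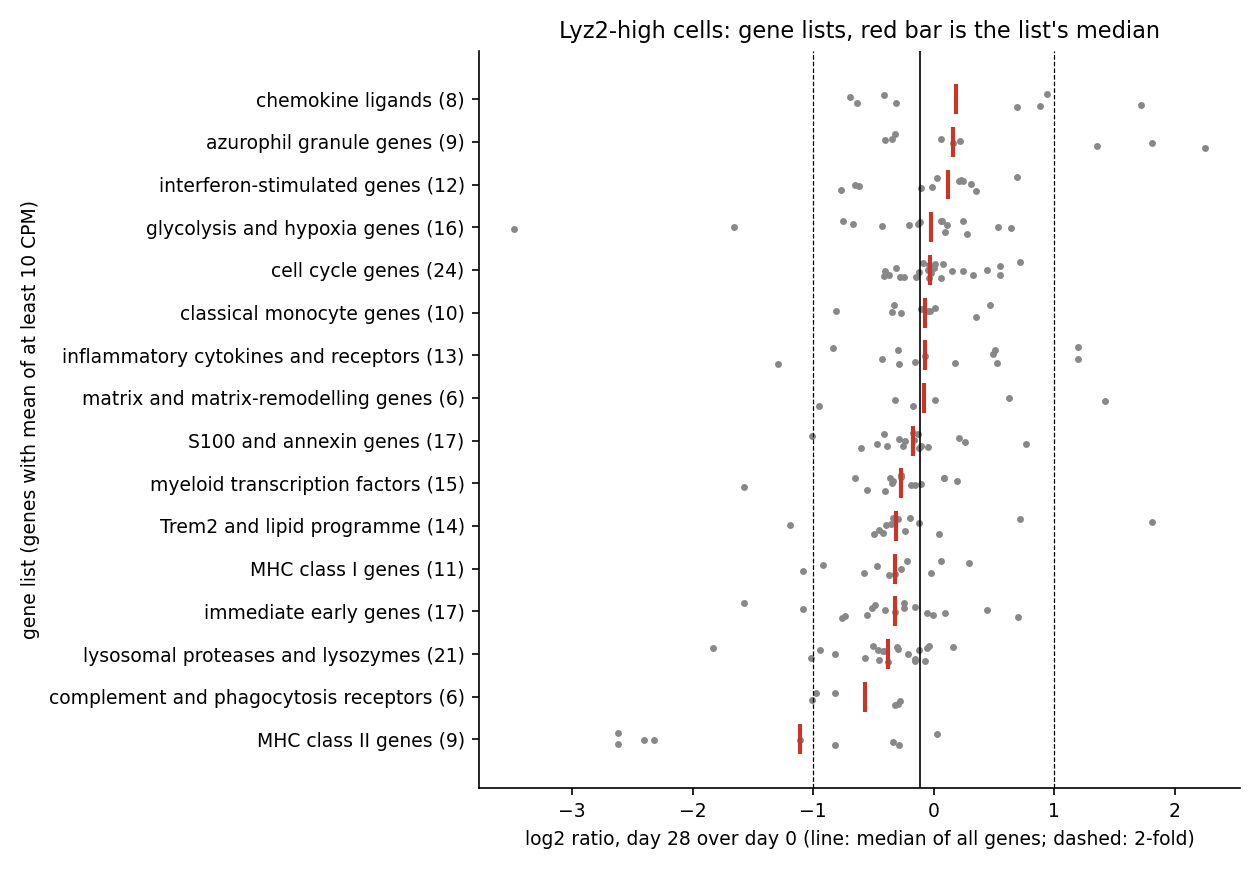
Log2 ratio of day 28 over day 0 in Lyz2-high cells for each gene with a mean of at least 10 CPM in 16 lists, with the list's median as a red bar, the median of all genes (-0.12) as a line and 2-fold as dashed lines. The MHC class II list has a median of -1.11 and the chemokine list one of 0.19.

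MHC class II genes, by which antigen is shown to T cells, had a list median of -1.11 over 9 genes tested, 5 of them 2-fold lower and none higher. H2-Ab1 had 37.9 CPM at day 28 and 232 CPM at day 0, a ratio of 0.163 (0.128 to 0.206), and Cd74 144 and 717 CPM, a ratio of 0.201 (0.177 to 0.227). A single day 0 cell held 46.0% of the H2-Ab1 UMIs, and without the top cell of each library the log2 ratio was -1.99 in place of -2.62. Summed over H2-Aa, H2-Ab1, H2-Eb1 and Cd74, the median member had 90.7 CPM at day 28 and 306 CPM at day 0. Erythroid cells, which should lack these genes, had medians of 40.2 and 277 CPM, and B-lineage cells, which express them, summed levels of 3449 and 17584 CPM. The class II level of the median member at day 0 was thus near that of erythroid cells. Leaving out members with 5 or more UMIs of B, T, plasma, erythroid or basophil genes, 122 cells at day 28 and 47 at day 0, brought the log2 ratio of H2-Ab1 to -0.31 and that of Cd74 to -0.28. The accessory genes H2-DMa and H2-DMb1 were closer, with 225 and 284 CPM and with 98.9 and 121 CPM. MHC class I genes had 1 of 11 tested 2-fold lower and a median of -0.32.

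Genes of energy use, stress and growth state followed. In the glycolysis and hypoxia list 2 of 16 genes tested were 2-fold lower, Eno1 with 207 CPM at day 28 and 654 CPM at day 0 and Pgk1 with 5.36 and 59.9 CPM. Other enzymes of the same pathway were level, Gapdh with 2458 and 2276 CPM and Ldha with 441 and 420 CPM. Eno1 had 22.2 and 72.0 CPM in erythroid cells and 74.1 and 244 CPM in B-lineage cells of the same libraries, and Pgk1 was lower at day 28 in both sets as well, with 1.48 and 4.96 CPM and with 5.21 and 26.6 CPM. Both genes have processed copies in the genome that can share reads, so their counts are uncertain. Immediate early genes had 2 of 17 tested 2-fold lower, Junb with 487 and 1034 CPM and Klf2 with 74.2 and 221 CPM, and a median of -0.32. Junb and Klf2 were also lower at day 28 in B-lineage cells, at 287 and 1308 CPM and at 97.1 and 452 CPM. Fos had 921 and 1559 CPM, while Jun ran the other way with 340 and 250 CPM.

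Cell cycle genes were expressed and level. Mki67, a marker of cycling cells, had 101 CPM at day 28 and 103 CPM at day 0, a ratio of 0.982 (0.796 to 1.22). The 24 cell cycle genes had a median log2 ratio of -0.03. None of them was 2-fold apart, beside 0.803% higher and 2.95% lower over all genes. The histone gene Hist1h2ap gave the lowest ratio of all named genes, with 9.48 and 178 CPM, and stood at 20.7 and 761 CPM in erythroid cells and 16.5 and 223 CPM in B-lineage cells. Histone genes are near-identical copies, and the counts of 1 of them are uncertain. Of 15 myeloid transcription factors tested only Klf2 was 2-fold apart. Spi1, which encodes PU.1, had 472 and 569 CPM, and Irf8, needed for monocyte development, 363 and 439 CPM. Interferon-stimulated genes had none of 12 tested 2-fold apart and a median of 0.12, and iron and haem genes none of 10 and a median of -0.06. Patrolling monocyte and alternative activation genes had 1 of 6 tested 2-fold lower each, Ear2 and Il4ra, with medians of -0.15 and -0.34.

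S100 and annexin genes were likewise level, with 1 of 17 tested 2-fold lower, Anxa4 with 19.0 and 38.3 CPM, none higher and a median of -0.17. Over all genes 2.95% were 2-fold lower and 0.803% higher. S100a6 had 2247 and 2689 CPM and Lgals1 2665 and 2873 CPM.

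Several of the highest ratios belonged to genes that other cells of the libraries carry. Jchain, the joining chain of antibodies, had 137 CPM at day 28 and 13 CPM at day 0 in Lyz2-high cells, and 123 and 14.9 CPM in erythroid cells, which should lack it, against 18015 and 4073 CPM in B-lineage cells. It was detected in 76.1% and 11.9% of members and in 76% and 14.1% of erythroid cells, so members were close to cells that should lack it. Whether the level in members is background was not tested. Of 9 azurophil granule genes tested, 3 were 2-fold higher at day 28, Mpo, Ms4a3 and Cd63, with a median of 0.16. Mpo had 129 and 50.5 CPM in members, with a UMI in 68.9% and 26.5% of cells, against 342 and 268 CPM in erythroid cells, with a UMI in 76% and 22.4%. The median cell had 115 and 0 CPM among members and 91.3 and 0 CPM among erythroid cells. Ms4a3 was detected in 27.0% and 5.96% of members and in 30% and 8.24% of erythroid cells. Cd63 was detected in 15.8% and 3.31% of members and in 14% and 5.88% of erythroid cells. Elane was level between the libraries, with 364 and 349 CPM in members against 450 and 545 CPM in erythroid cells. Per cell the order of Elane was the other way: medians were 266 and 108 CPM in members against 90.7 and 0 CPM in erythroid cells, and 87.8% and 56.3% of members had a UMI against 72% and 23.5% of erythroid cells. Rnaset2a and Rnaset2b, near-identical ribonuclease genes whose reads cannot be told apart with certainty, had 181 and 74.3 CPM and 160 and 50.5 CPM in members. They were also higher at day 28 in B-lineage cells, with 139 and 51.8 CPM and with 144 and 47.8 CPM. B cell markers had 3 of 4 tested 2-fold lower at day 28, and at least 5 UMIs of other lineages were found in 55.0% of members at day 28 and 31.1% at day 0. Their part in the other differences was not tested beyond the alternatives given.

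None of 8 neutrophil markers tested was 2-fold apart, beside 0.803% higher and 2.95% lower over all genes, and their median log2 ratio was -0.05. S100a8 had 246 CPM at day 28 against 206 CPM at day 0, and 1 cell held 23.2% of the members' UMIs at day 28 and 1 cell 37.4% at day 0. It was detected in 63.5% and 39.7% of members and in 76% and 23.5% of erythroid cells. S100a9, its partner in calprotectin, had 66.4 and 39.0 CPM, a ratio of 1.70 (1.24 to 2.36), and was detected in 45.5% and 15.9% of members and in 48% and 18.8% of erythroid cells. Chil3, a chitinase-like gene that monocytes also express, had 187 and 191 CPM in members, against 40.3 and 36 CPM in Prtn3-high cells. Cd177, a neutrophil surface gene, was among the 12 lowest ratios with 21.4 and 87.3 CPM, a ratio of 0.245 (0.174 to 0.342), and a UMI in 37 and 69 members. Its level was 4.39 and 13.6 CPM in Prtn3-high cells and 0 and 3.72 CPM in erythroid cells.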

How the data were processed

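Single-cell RNA libraries from 1 day 28 sample and 1 day 0 sample were used as deposited. Per the submitters' processing notes, the authors used Cell Ranger 2.1.1 and STAR (version not given in the sources used here) with the genome build mm10. The deposited values are UMI counts per gene and barcode, not normalized, per the file headers and values. The files held 2653 and 2668 barcodes, of which 17 and 2 were left out by the filters on genes and mitochondrial UMIs, and 27998 gene identifiers, of which 27722 matched GENCODE M21 (GRCm38). The 65 symbols that occur more than once were kept apart by identifier.

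Counts of the chosen cells were summed per library and divided by their total (CPM). Ratios of day 28 over day 0 carry exact conditional binomial 95% intervals, and shares carry Clopper-Pearson intervals. For ratios of shares the numbers of cells were taken as counts with no upper limit, so those intervals are too wide for large shares. PCR error, differences between cells, mouse and library are not in these intervals. For levels, UMIs were pooled over cells, so the intervals are too narrow where few cells hold most UMIs. Genes with a mean of at least 10 CPM were compared, and 2-fold was the threshold. For a gene at 0 in 1 library, 3 UMIs stood in as its upper limit there. With 1 library per group no test was made.

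Background was read from B-lineage cells (at least 5 UMIs of Cd79a and Cd79b) and erythroid cells (globins at least 5% of UMIs). Members and the 35 gene lists, 437 genes of which Azu1, Clec7a, Rnase2 and Trdc were not among the symbols, were chosen with earlier results of these data known. Named genes were the 12 highest and 12 lowest day 28 to day 0 ratios with a mean level of 50 CPM or more and 10 UMIs in the higher library, without rule, mitochondrial, ribosomal, haemoglobin, immunoglobulin, sex-linked and unnamed genes; the 2 highest and 2 lowest of each list; 6 per side of each subset or like-cell contrast with 1 direction in both libraries; and the label markers, rule genes, Itgam, Csf1r, Adgre1, Ly6c2, Ccr2 and Mki67. Other genes named were chosen after their values were seen. Doublets were kept. Scrublet in scanpy 1.11.5 called 0.829% and 0.150% of cells, the second too few to rely on, and an alternative left out the highest scores, 0.8% per 1000 barcodes. Other alternatives changed thinning, scaling, filters and the rule. The summing and calling were tested on simulated data. Promoters came from RefSeq (GRCm38.p6). Python 3.11.15, numpy 2.4.6, scipy 1.17.1, pandas 2.3.3 and matplotlib 3.10.9 were used.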

Additional observations from a re-analysis of the deposited data

Results flagged for a closer look

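Some differences between subsets of Lyz2-high cells pointed in opposite directions in the 2 libraries. None of these differences between libraries was tested. S100a8, a neutrophil and monocyte gene, had 118 against 494 CPM in Trem2-positive and Trem2-negative members at day 28, a ratio of 0.240, and 257 against 124 CPM at day 0, a ratio of 2.07. Between Ccl2-positive and Ccl2-negative members it had 358 against 137 CPM at day 28, a ratio of 2.62, and 123 against 287 CPM at day 0, a ratio of 0.427. A single cell held 23.2% of its UMIs at day 28 and another 37.4% at day 0. Without those cells the log2 ratios were -1.49 and 0.11 for Trem2, and 0.84 and -0.16 for Ccl2. Atf3 had a ratio of 1.26 between Ccl2-positive and Ccl2-negative members at day 28 and 0.762 at day 0. Lyz2, which the rule used, had ratios of 1.07 and 0.944 in the same contrast.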

How the results depend on the processing

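The ratio of the share of Lyz2-high cells, 1.49, was 0.940 among cells of at least 4175 UMIs. The 53 genes at least 2-fold higher at day 28 became 290 with members thinned to 3000 UMIs, 131 with members chosen on thinned cells, 87 with the median ratio set to 1 and 145 without members that had 5 or more other-lineage UMIs. A 50 CPM minimum left 11, and no filter gave 537. The 195 genes at least 2-fold lower at day 28 became 491, 293 and 393 under thinning, choice on thinned cells and the other-lineage limit, 24 at 50 CPM and 1021 with no filter. Of the 53 and 195 genes, 31 and 126 were among those called after thinning. The ratio of the share with Trem2, 1.08, was 0.680 after thinning and 0.742 with members chosen on thinned cells, and that with Ccl2, 1.06, was 0.770 and 0.763. For Trem2 subsets thinning gave 130 higher and 66 lower genes, and 50 CPM gave 0 and 4. For Ccl2 subsets thinning gave 65 and 86, and 50 CPM gave 0 and 0. The erythroid list median, -1.0, was 0.70 with members chosen on thinned cells, 0.48 without the top Scrublet scores and 0.56 without the deepest 5% of members. The log2 ratio of Car2, an erythroid gene, was -2.21, and 0.99, 1.07 and 1.13 in those settings, 2.12 under the other-lineage limit and 0.98 without its top cell, an alternative chosen after seeing the data; 1 day 0 cell held 89.9% of its UMIs. That of Il6, 1.19, was -0.40 after thinning. The cause was not tested. Of the other list medians under alternatives, 269 moved by less than the interval of the median and 19 by more, and of named genes 1212 and 157. Thinning to 3000 UMIs leaves genes near 10 CPM on few UMIs. No paired analysis was possible because each group had 1 library and no replicate numbers.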
